A study of Mus musculus with 150 samples.

Results

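The 10 genes described here are transcriptional targets and extracellular modulators of bone morphogenetic protein (BMP) signalling, out of 54082 genes counted in 150 single somatosensory neurons of young mice. They were chosen by name, with their CPM by neuron type and by skin label in earlier results of these data known, so their levels and tests describe these cells and are no independent support for the choice. No threshold on values picked them. They are the Id genes Id1, Id2, Id3 and Id4, the inhibitory SMADs Smad6 and Smad7, the secreted modulators Bmper and Fst, and the membrane-anchored co-receptors Rgma and Rgmb. The neurons came from CD1 mice of Charles River at postnatal day 5 or, for 33 cells of 2 litters, day 4, in 10 labelled litters. Of the cells, 45 were labelled as innervating hairy skin and 1 carried both labels and entered no comparison. The others were labelled as innervating glabrous skin, the hairless skin of the paw. The labels do not say how the skin target of a cell was found. No genotype or treatment is labelled, so the labels do not say whether the animals were treated in any way. The study's title names skin-type-dependent development of mechanosensory neurons as its subject.

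BMPs are secreted dimers that bind paired type I and type II serine/threonine kinase receptors, which phosphorylate SMAD1, SMAD5 and SMAD9. These enter the nucleus with SMAD4 and switch on target genes, among which the Id genes are the best known. Id proteins have a helix-loop-helix but no DNA-binding region, and hold E proteins such as Tcf3 away from DNA. Smad6 and Smad7 are induced by the pathway and dampen it, follistatin (Fst) binds activins and some BMPs outside the cell, Bmper binds BMPs and can raise or lower their activity, and the RGM proteins are co-receptors that also bind neogenin. In sensory ganglia, retrograde BMP signals from the skin and face are known to shape neuronal identity. Id genes are also transcribed in glia, endothelium and fibroblasts, so markers of those cells are given beside the results.

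RefSeq promoter sequences (GRCm38.p6) were on hand for 6 of the 10 genes, and 3 are shown. These are Id2, whose sums of at least 2 cells set a neuron type apart with all cells kept, and Bmper, the member furthest apart by skin. Id4 is shown for contrast, as an Id gene that passed neither by type nor by skin over all cells. The sequences run up to the RefSeq start, 5′ to 3′ on the gene's strand. The capitals mark GGCGCC, a palindrome known as the core of BMP response elements, and GTCT or its complement AGAC, the short SMAD-binding motif. The 89 bases of Id2 stop 161 bases short of the RefSeq start, because the window was cut at the first base inside an annotated exon of the gene. In GENCODE M21 Id2 spans chr12:25093799-25097140, so the bases shown lie inside the annotated gene.
Id2, chr12:25096254-25096342, minus strand: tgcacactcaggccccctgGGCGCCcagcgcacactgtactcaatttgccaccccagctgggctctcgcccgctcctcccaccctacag
Id4, chr13:48260866-48261115, plus strand: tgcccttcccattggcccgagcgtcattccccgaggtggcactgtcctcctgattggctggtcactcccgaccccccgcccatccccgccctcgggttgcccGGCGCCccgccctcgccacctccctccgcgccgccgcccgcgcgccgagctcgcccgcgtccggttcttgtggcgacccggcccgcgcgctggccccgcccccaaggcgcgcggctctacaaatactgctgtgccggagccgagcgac
Bmper, chr9:23222826-23223075, plus strand: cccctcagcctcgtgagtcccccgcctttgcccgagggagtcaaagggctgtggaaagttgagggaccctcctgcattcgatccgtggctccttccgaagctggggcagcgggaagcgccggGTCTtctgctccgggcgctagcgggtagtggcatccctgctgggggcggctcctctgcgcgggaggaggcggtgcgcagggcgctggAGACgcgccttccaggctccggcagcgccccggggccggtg

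GGCGCC stood at -231 from the start in Id2 and at -148 in Id4. It was in 2.734% of promoters over the window shown for Id2 and in 9.586% over the 250 bases shown for Id4. The Bmper window held no GGCGCC and 2 GTCT or AGAC motifs, which 82.86% of 32851 promoters hold at least once on either strand. These matches describe the letters of the windows and nothing about binding. In the GENCODE M21 annotation of GRCm38, Id1 (chr2:152736251-152737410), Id3 (chr4:136143497-136145755), Fst (chr13:114452290-114458951), Rgma (chr7:73375509-73419899), Rgmb (chr17:15803188-15831039) and the remaining members are protein coding.

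Each cell held 395811 to 1053854 counts (median 703718 in hairy cells and 761491.5 in glabrous cells) over 4360 to 15865 detected genes, and the most alike pair of cells had a Pearson correlation of 0.931 on the log2(CPM + 1) scale. Neuron types were set per cell from CPM (counts scaled to the total of the cell): Nefh-low where Nefh (neurofilament heavy chain, of large myelinated neurons) was under 500 CPM, otherwise the type of the highest of the receptor genes Ret, Ntrk2 and Ntrk3 where this reached 100 CPM. None of the 10 genes enters that rule. This gave 46 Nefh-low cells (26 hairy, 20 glabrous), 55 Ret-high cells (15 hairy, 39 glabrous and the cell with both labels), 18 Ntrk2-high cells (2 hairy, 16 glabrous), 18 Ntrk3-high cells, all glabrous, and 13 cells of no type. No cell fell between 377.0 and 623.2 CPM of Nefh or, as highest receptor, between 93.6 and 117.4 CPM. In Nefh-low cells the median of Tafa4, a marker of C-fibre touch neurons, was 21.09 CPM. Tests compared sums per litter, with the litter as the replicate. Sums were of at least 2 cells, except within a single neuron type (at least 1 cell).

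The Nefh-low group was not uniform as neurons. In 10 of its cells (3 hairy, 7 glabrous) the summed pan-neuronal markers Tubb3, Rbfox3, Snap25, Prph, Slc17a6 and Isl1 lay between 60.68 and 2118 CPM, against 3589 CPM or more in every other cell and 5156 to 9402 CPM in the 3 Nefh-high types. The summed myelinating Schwann cell markers had a median of 9443 CPM in these 10 cells, against 3348 CPM in the other 36 Nefh-low cells. For fibroblast markers the medians were 1441 CPM and 474.9 CPM, and for satellite glia markers 2540 CPM and 1186 CPM. The label somatosensory neuron is thus not borne out by neuronal markers in these 10 cells, and the Nefh-low differences of the members are given with and without them.

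Id1, Id2 and Id3 were higher in Nefh-low cells than the mean of the 3 Nefh-high types, while Id4 did not pass the test. Id1 was not above Ntrk2-high cells, with median sums of 24.22 CPM in Nefh-low and 26.34 CPM in Ntrk2-high cells. Of the 10 members, 4 rose (Id1, Id2, Id3 and Rgma) and 1 fell (Fst) at an adjusted p under 0.05, in edgeR's quasi-likelihood test with litter and skin type in the model and Benjamini-Hochberg adjustment over all genes. In the same contrast 25.7% of the 14812 genes tested passed, 12.1% as higher and 13.6% as lower, so the members' count is read against types that differ widely. The median log2 difference was 0.89 over the members and 0.03 over all genes. Without the 10 cells low in neuronal markers, 5 of the 9 members then tested rose (Id1, Id2, Id3, Smad6 and Rgmb) and 1 fell (Fst).

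Id3 summed to between 35.33 and 191.2 CPM over 8 litter and skin sums of Nefh-low cells (median 81.81). In the Nefh-high types it was 11.08 to 42.03 CPM in the 9 Ret-high sums (median 22.43), 39.79, 44.91 and 63.71 CPM in the 3 Ntrk2-high sums, and 20.99, 23.57 and 64.94 CPM in the 3 Ntrk3-high sums. The lowest Nefh-low sums thus reached into the range of each other type. The difference was 1.97 ± 0.29 (log2 ± SE, adjusted p = 0.000184), with Nefh-low higher in 6 of the 6 litters that had both. Such litter counts between types average over skin types and over whichever Nefh-high types a litter had, so they mix skin with type. In litter O, hairy Nefh-low cells were set against glabrous Ntrk3-high cells. Averaged over litters with both skin types pooled, Id3 was at 108.7 ± 48.85 CPM in Nefh-low cells (SD, n = 7 litters), 54.35 ± 14.18 CPM in Ntrk2-high (n = 4), 36.5 ± 24.67 CPM in Ntrk3-high (n = 3) and 25.95 ± 10.64 CPM in Ret-high cells (n = 8). Neighbours in this order lay within each other's spread. The 36 Nefh-low cells with neuronal markers averaged 90.85 ± 39.04 CPM, and the difference was then 1.59 (edgeR adjusted p = 0.000508).

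In sums of at least 2 cells, with the 10 cells low in neuronal markers kept, Id2 was the member that set Nefh-low cells apart. The 8 Nefh-low sums were 91.48 to 261.6 CPM, whereas the 9 Ret-high sums were 23.19 to 85.43 CPM (median 58.05), the Ntrk2-high sums 36.32, 41.31 and 76.69 CPM, and the Ntrk3-high sums 22.39, 69.41 and 80.60 CPM. Every Nefh-low sum of at least 2 cells lay above every such sum of the other types, with 91.48 and 85.43 CPM the closest. Sums of 1 cell broke this, down to 0 CPM in Nefh-low and up to 179.1 CPM in Ret-high cells. The glabrous Nefh-low sum of litter I included a cell at 605.6 CPM of Id2 with 526.8 CPM of pan-neuronal markers. The cells of that sum with neuronal markers held 15.79, 39.17, 97.66, 110.4 and 126.6 CPM of Id2. The separation of sums is therefore not shown for cells with neuronal markers alone. The difference of Nefh-low from the Nefh-high types was 1.62 ± 0.36 (edgeR adjusted p = 0.00407, higher in 6 of 6 litters). It was 1.35 (edgeR adjusted p = 0.00862) without the 10 cells low in neuronal markers. Over litters Id2 averaged 147.5 ± 42.33 CPM in Nefh-low cells (n = 7), with Ret-high (66.24 ± 21.17, n = 8), Ntrk2-high (60.14 ± 25.01, n = 4) and Ntrk3-high cells (57.47 ± 30.89, n = 3) within each other's spread. Id2 also had a count in 44 of the 46 Nefh-low cells, and the 13 cells of no type, whose Calca median was 4900 CPM, had an Id2 median of 100.4 CPM.

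With all cells kept, Id1 had a smaller difference than Id2 and Id3, and one that passed in fewer alternatives. It was 18.44 to 47.46 CPM in the Nefh-low sums (median 24.22), 3.865 to 24.69 CPM in the Ret-high sums (median 19.65), 20.14, 26.34 and 61.94 CPM in the Ntrk2-high sums and 2.799, 5.762 and 16.29 CPM in the Ntrk3-high sums. The Nefh-low range sat above that of Ntrk3-high and overlapped those of Ret-high and Ntrk2-high. The difference was 1.38 ± 0.38 (edgeR adjusted p = 0.0147, higher in 5 of 6 litters). Without the 10 cells low in neuronal markers it was 1.65 (edgeR adjusted p = 0.00405), above those of Id2 and Id3 in that fit. Over litters the order was Ntrk2-high at 36.32 ± 18.42 CPM, Nefh-low at 28.58 ± 11.35, Ret-high at 18.25 ± 4.63 and Ntrk3-high at 8.283 ± 7.09, and neighbours in this order lay within each other's spread. Among Nefh-low cells, Id1 had a median of 39.52 CPM in the 20 cells with at least 100 CPM of Tafa4 and of 8.406 CPM in the 15 with at least 500 CPM of Calca (a neuropeptide of nociceptors) and less Tafa4. With Nefh-low restricted to at least 100 CPM of Tafa4 the difference was 2.43 (edgeR adjusted p = 0.000517), and with it restricted to lower Tafa4 it was -0.19 (adjusted p = 0.84).

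Id4, which in neural precursors often acts differently from its relatives, did not pass between the types over both skin types. It averaged 134.4 ± 27.81 CPM in Ntrk2-high, 110.6 ± 36.17 in Ntrk3-high, 106.8 ± 38.9 in Ret-high and 99.91 ± 48.63 in Nefh-low cells, and all 4 overlap. The difference of Nefh-low from the Nefh-high types was -0.57 ± 0.38 (edgeR adjusted p = 0.308), and -0.37 (0.485) without the 10 cells low in neuronal markers. In sums of at least 2 cells, with the 10 cells low in neuronal markers kept, the skin types stood apart here. In glabrous cells the Nefh-low sums were 11.85, 57.76 and 68.7 CPM, against 86.18 to 144.3 CPM in Ret-high, 117.5 to 175.2 CPM in Ntrk2-high and 76.22 to 148.3 CPM in Ntrk3-high sums, so that the Nefh-low sums lay below all others, whereas the 5 hairy Nefh-low sums were 101.3 to 198.7 CPM. In the glabrous Nefh-low sum of litter I, the cells low in neuronal markers held 0, 10.51, 18.25, 26.09 and 78.81 CPM of Id4. Its other cells held 41.62, 83.46, 86.4, 140.9 and 165.4 CPM. Neither separation of sums is therefore shown for cells with neuronal markers alone. With sums of 1 cell included, the skin types overlapped in the 5 litters that had both. Their Nefh-low sums were 0 to 210.0 CPM in glabrous and 8.117 to 198.7 CPM in hairy cells. In glabrous cells only, with those low in neuronal markers kept, Id4 passed as lower (-1.42, edgeR adjusted p = 0.0418), where 13% of all genes passed. It also passed with Nefh-low restricted to under 100 CPM of Tafa4 (-1.09, 0.0112), where 16.1% of all genes passed, and stood at 0.06 (0.949) with it restricted to at least 100 CPM. Within Nefh-low cells its median was 172.9 CPM in the 20 Tafa4-high cells and 33.62 CPM in the 15 Calca-high cells.

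Markers of other cells moved with the Id genes. In the Nefh-low contrast 5 of the 5 fibroblast markers tested, 4 of 6 myelinating Schwann cell markers, 2 of 7 satellite glia markers and 1 of 5 macrophage markers were also higher, and 3 of 6 pan-neuronal markers were lower. A further fit took the markers of satellite glia, Schwann cells, fibroblasts, endothelium and macrophages, pooled into a single covariate. The pan-neuronal markers were not in it, and the lists were not adjusted for separately. In that fit Id3 was 0.69 (edgeR adjusted p = 0.203), Id2 0.85 (0.403) and Id1 0.49 (0.662), and no Id gene passed. Without the cells in the top quartile of satellite glia markers, Id3 was 2.93 (0.000548), Id2 1.66 (0.0107) and Id1 1.91 (0.0194). Id2 and Id3 passed in 27 of 28 alternatives, and Id1 in 21, losing the call among others without litter E_F_G (1.22, adjusted p = 0.148), in glabrous cells only (0.87, 0.183) and within plate 1 (0.92, 0.108).

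**Figure D1:**
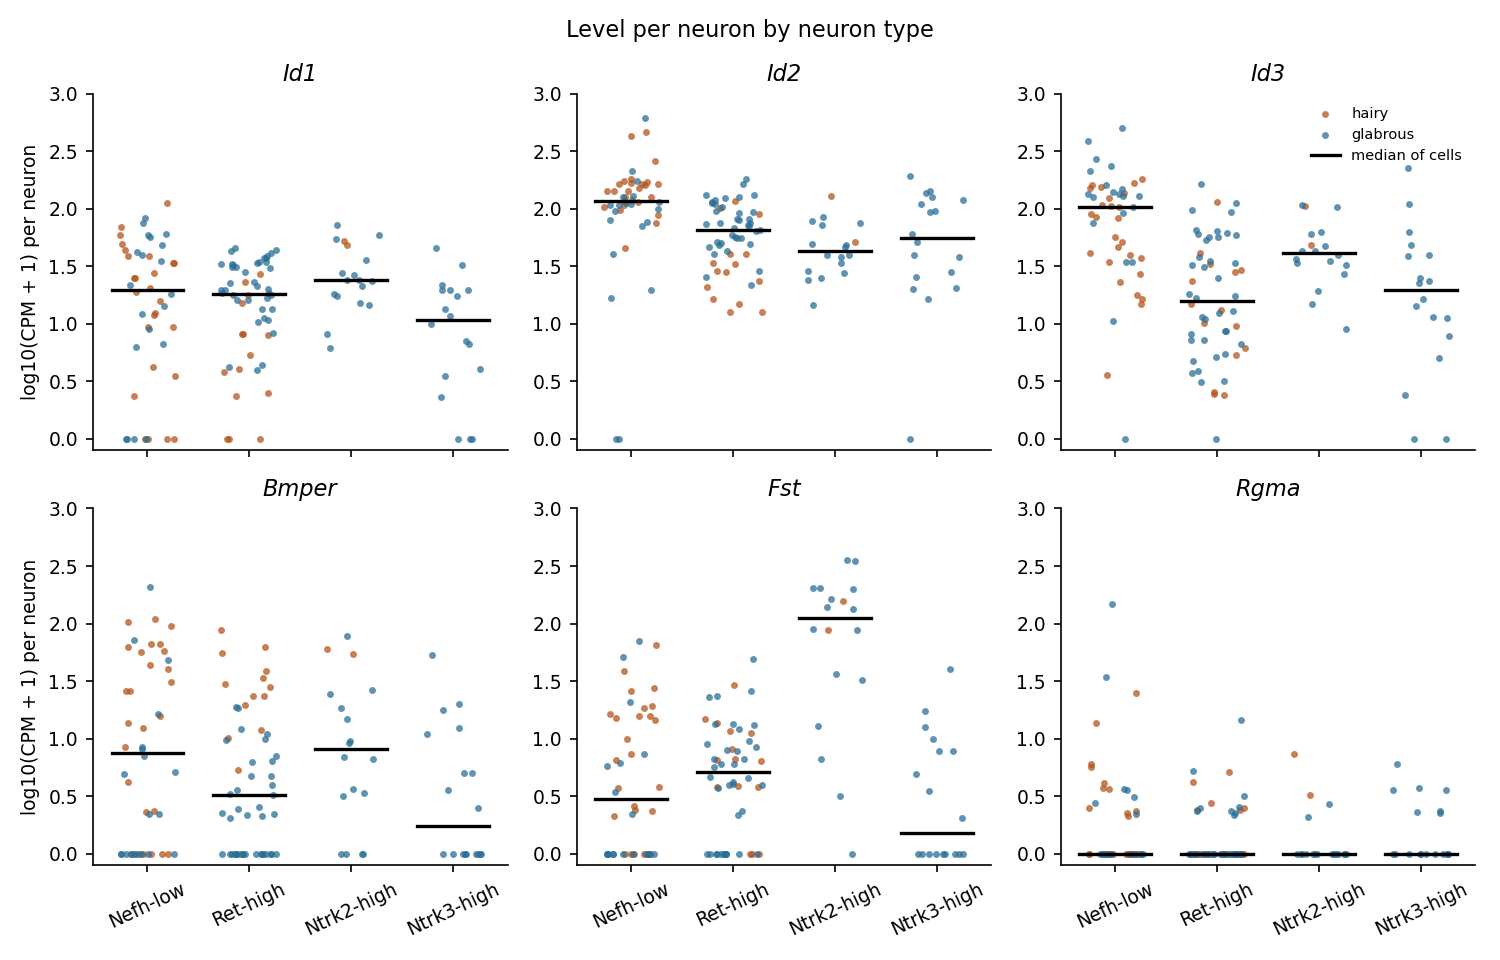
Id1, Id2, Id3, Bmper, Fst and Rgma in single cells of the 4 neuron types, as log10(CPM + 1), with hairy and glabrous cells in different colours and a black bar at the median of each type. Id2 and Id3 sit highest in Nefh-low cells, with medians of 116.3 and 102.8 CPM, and Fst stands high only in Ntrk2-high cells, with a median of 110.2 CPM.

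The inhibitory SMADs were scarce. Smad6, which acts mainly on BMP receptors, had a count in 20 of the 46 Nefh-low cells. Its sums were 1.291 to 7.164 CPM in Nefh-low cells (median 3.205), 0 to 3.312 CPM in Ret-high, 0 to 2.084 CPM in Ntrk2-high and 1.399 to 3.143 CPM in Ntrk3-high cells, with overlap throughout. The difference of 1.97 ± 0.72 missed the threshold (edgeR adjusted p = 0.0554, higher in 6 of 6 litters) and passed it without the 10 cells low in neuronal markers (2.06, adjusted p = 0.0376). Smad7, which inhibits TGF-beta and BMP receptors alike, averaged 2.35 ± 2.139 CPM in Nefh-low, 2.53 ± 0.5416 in Ntrk3-high, 2.143 ± 1.476 in Ret-high and 1.329 ± 1.289 in Ntrk2-high cells, a difference of 0.23 ± 0.72 between Nefh-low and the rest (edgeR adjusted p = 0.849), or of 0.36 (0.745) without the 10 cells low in neuronal markers.

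Follistatin marked 1 neuron type. The Ntrk2-high sums held 74.46, 125.1 and 258.6 CPM of Fst in litters E_F_G, H and I, against 3.265 to 9.731 CPM in the 3 Ntrk3-high sums, 2.462 to 11.61 CPM in the 9 Ret-high sums (median 7.036) and 0 to 14.8 CPM in the 8 Nefh-low sums (median 12.12). No Ntrk2-high sum of at least 2 cells overlapped any such sum of another type. Ntrk2-high exceeded Ntrk3-high by 4.82 ± 0.77 (log2 ± SE, edgeR adjusted p = 0.0125), the only member to pass of 10, where 0.385% of all genes passed, 0.149% as higher and 0.236% as lower. Ret-high was lower than Ntrk2-high by -4.69 ± 0.61 (adjusted p = 0.00109), again the only member, where 1.24% of all genes passed and 0.398% as lower. Both comparisons share the Ntrk2-high sums, and 2 litters had both types in each.

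At the level of cells, 14 of 18 Ntrk2-high cells had at least 30 CPM of Fst, against 4 of 46 Nefh-low, 1 of 55 Ret-high and 1 of 18 Ntrk3-high cells. At least 80 CPM was reached in 12 of the 18 and in no cell of the other 3 types. Over litters Fst averaged 159.0 ± 78.67 CPM in Ntrk2-high (n = 4), 8.732 ± 5.794 in Nefh-low (n = 7), 6.472 ± 3.02 in Ret-high (n = 8) and 5.816 ± 3.442 CPM in Ntrk3-high cells (n = 3), and the last 3 did not differ beyond their spread. The lower Fst of Nefh-low cells against the mean of the 3 Nefh-high types (-1.44 ± 0.48, edgeR adjusted p = 0.038, and -1.41, 0.0329, without the 10 cells low in neuronal markers) was higher in 3 and lower in 3 of 6 litters, and the Ntrk2-high cells carry the only high level in that mean.

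The direction of the Fst difference held in all 28 alternatives of both comparisons, between 4.54 and 6.17 for Ntrk2-high minus Ntrk3-high and between -5.79 and -4.09 for Ret-high minus Ntrk2-high. The calls were lost without litter I, which left the differences at 4.84 (edgeR adjusted p = 0.384) and -4.87 (0.0517), and in glabrous cells only, at 4.59 (0.0887) and -4.10 (0.0702), besides settings listed with the processing. Satellite glia markers had a median sum of 1974 CPM in Ntrk2-high cells, 1334 CPM in Nefh-low, 1139 CPM in Ret-high and 721.2 CPM in Ntrk3-high cells. With the pooled markers of other cells as a covariate 1 member, Fst, still passed in both comparisons. Without the cells in the top quartile of satellite glia markers the difference from Ntrk3-high was 6.17 (adjusted p = 0.146).

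**Figure D2:**
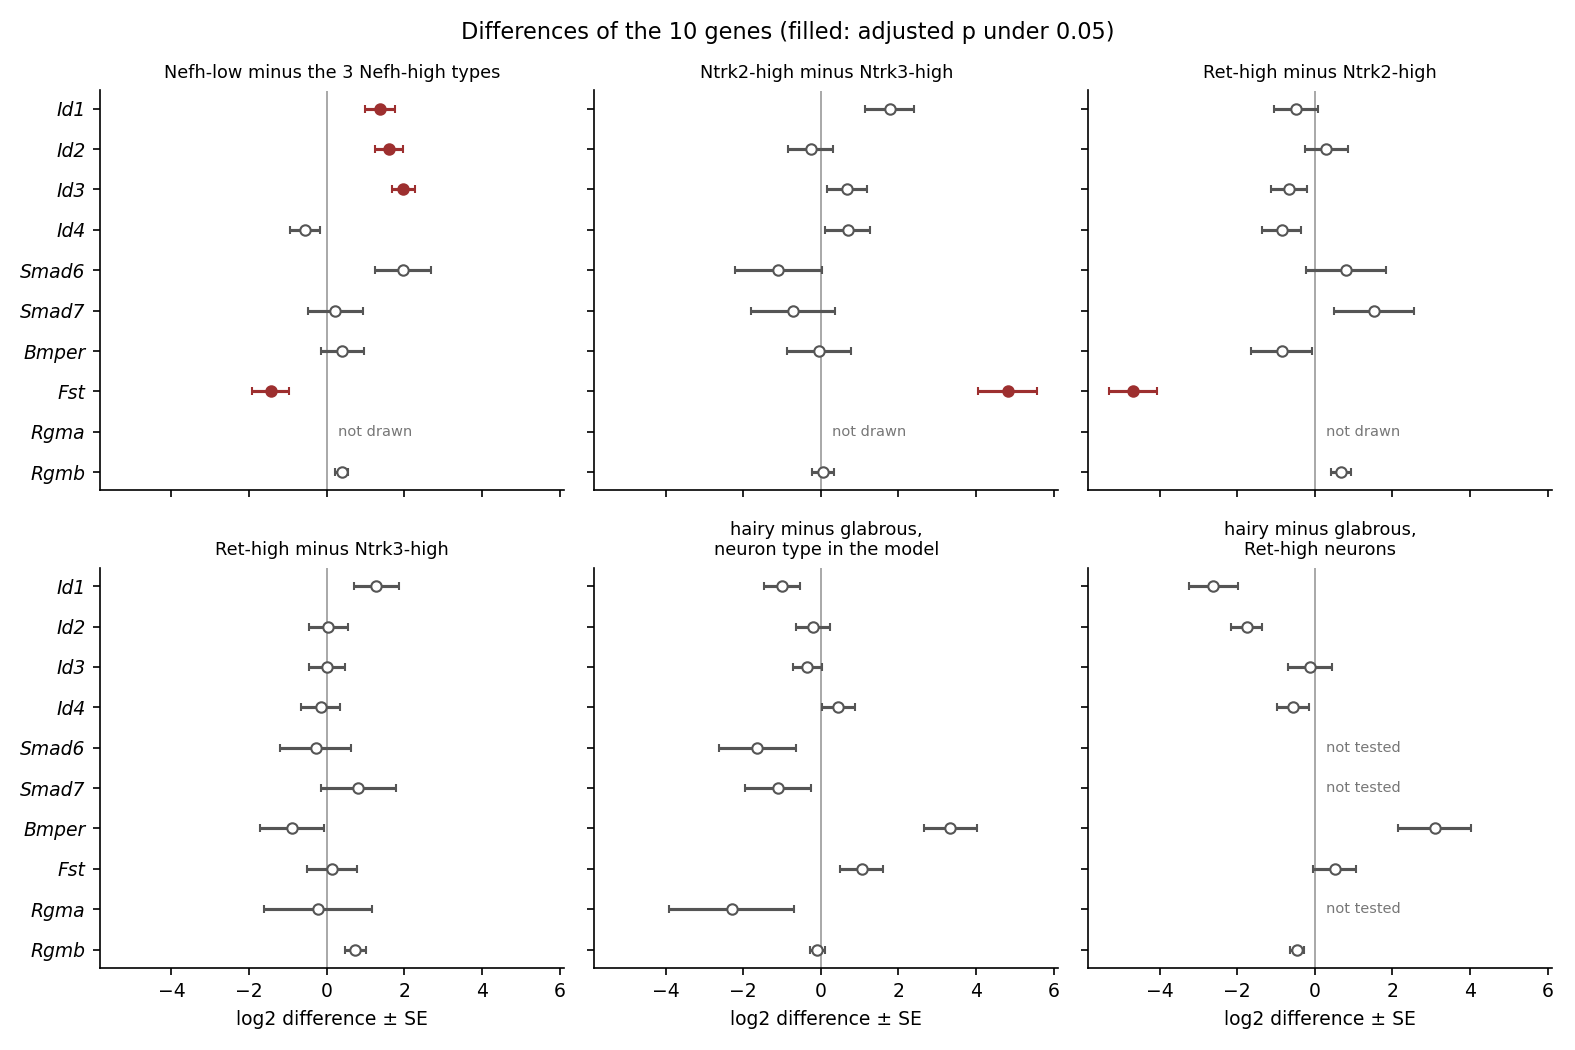
Log2 differences (point) with their standard errors (bar) of the 10 genes in 6 comparisons, with filled points for an adjusted p under 0.05 in edgeR. Rgma is not drawn in the 3 contrasts that involve Ntrk2-high cells, whose 3 sums held no Rgma count, though it passed in the Nefh-low contrast. Fst is filled in the 3 contrasts with Ntrk2-high cells, and the hairy minus glabrous panels hold no filled point.

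Across cells Fst and Id3 followed glial RNA to different degrees in each type. The Spearman correlation of Fst with the summed satellite glia markers was 0.702 over 55 Ret-high cells, 0.691 over 18 Ntrk3-high cells, 0.393 over 46 Nefh-low cells and 0.243 over the 18 Ntrk2-high cells where Fst was high. For Id3 it was 0.743 in Ret-high, 0.688 in Ntrk2-high, 0.865 in Ntrk3-high and 0.316 in Nefh-low cells. Over all typed cells together, centred within type, Id3 with satellite glia had a rho of 0.63, the highest for any member with a marker list. The cells share litters and depth, so these are descriptions. The part of glial RNA in the type differences of Id3 was not tested beyond the fits above.

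**Figure D3:**
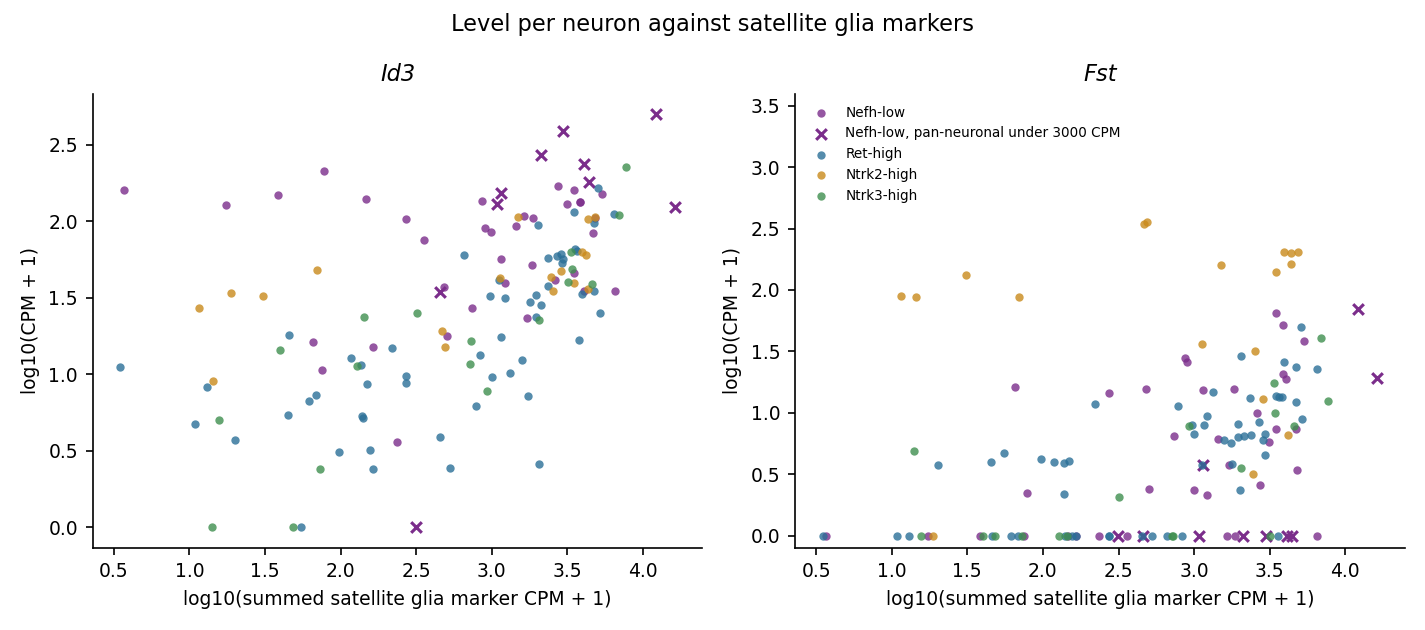
Id3 and Fst in single cells against the summed satellite glia markers, both axes log10(CPM + 1), coloured by neuron type, with crosses for the 10 cells under 3000 CPM of pan-neuronal markers. Id3 climbs with the glial markers in Ret-high, Ntrk2-high and Ntrk3-high cells (rho 0.743, 0.688 and 0.865), and the high Fst values belong to Ntrk2-high cells at low and high glial levels alike (rho 0.243).

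Bmper ranged widely within types. It summed to 1.422 to 44.94 CPM in Nefh-low cells (median 21.77) and 0.6118 to 46.38 CPM in Ret-high cells (median 5.485). The sums were 1.18, 4.547 and 16.18 CPM in Ntrk2-high and 0.4665, 4.976 and 13.12 CPM in Ntrk3-high cells, so that all types overlapped. By skin, hairy and glabrous Nefh-low sums were 19.87 to 44.94 and 1.422 to 17.91 CPM, without overlap. Hairy and glabrous Ret-high sums were 17.24 to 46.38 and 0.6118 to 5.485 CPM, also without overlap. With sums of 1 cell included, the skin types overlapped in both neuron types. Nefh-low cells differed from the others by 0.41 ± 0.56 (edgeR adjusted p = 0.637) although higher in 6 of 6 litters, and by 0.23 (0.825) without the 10 cells low in neuronal markers. Inside the Nefh-low group, 19 of the 20 Tafa4-high cells had a Bmper count, with a median of 45.04 CPM, against 8 of the 15 Calca-high cells and a median of 1.224 CPM. In the Tafa4-high cells the median was 56.07 CPM in 14 hairy cells and 9.737 CPM in 6 glabrous cells.

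Of the RGM co-receptors, Rgmb was abundant and Rgma nearly absent. Rgmb averaged 203.3 ± 49.24 CPM in Nefh-low, 182.0 ± 67.91 in Ret-high and 134.9 ± 30.99 CPM in Ntrk2-high cells, and its 3 Ntrk3-high sums were 73.34 to 157.2 CPM, with neighbours within each other's spread. Nefh-low exceeded the rest by 0.39 ± 0.17 (edgeR adjusted p = 0.0977), and by 0.59 (0.0114) without the 10 cells low in neuronal markers. Across all typed cells, centred within type, Rgmb had a Spearman correlation of 0.482 with the summed pan-neuronal markers.

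Rgma passed in the Nefh-low contrast (edgeR adjusted p = 0.0069), with no fold given because the 3 Ntrk2-high sums held 0 counts. Its Nefh-low sums were 46.92, 6.815, 4.684, 3.581, 0.5195, 0.4305, 0 and 0 CPM, against at most 1.481 CPM in any sum of the other types. A single sum was high, that of glabrous Nefh-low cells in litter E_F_G, with 99 counts. Pooled over cells, Nefh-low cells held 175 Rgma counts (5.376 CPM) and Nefh-high cells 52 (0.7595 CPM), but 97 of the 175 (55.43%) came from 1 cell whose pan-neuronal markers summed to 1487 CPM. Without litter E_F_G the adjusted p was 0.184, and without the 10 cells low in neuronal markers Rgma was too low to be tested.

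Among the Nefh-high types no member passed between Ret-high and Ntrk3-high cells (edgeR, 0.459% of all genes passed). At an unadjusted p under 0.05 there were 2 members and 1137 genes, and DESeq2 called 0 members and 264 genes. The 2 were Id1 (1.28 ± 0.58, p = 0.0433 before adjustment) and Rgmb (0.74 ± 0.27, p = 0.0152), both higher in Ret-high cells in 2 of 2 litters. The remaining members lay between -0.90 (Bmper) and 0.81 (Smad7), with Id2, Id3, Id4, Fst, Smad6 and Rgma between -0.28 and 0.13. Id1 was also 1.77 ± 0.64 higher in Ntrk2-high than in Ntrk3-high cells without passing (adjusted p = 0.471). Beside Fst and Rgma, the others of that contrast lay between -1.09 (Smad6) and 0.70 (Id4), with Id2, Id3, Smad7, Bmper and Rgmb inside. In Ret-high minus Ntrk2-high, Rgmb stood at 0.69 ± 0.26 (edgeR adjusted p = 0.291), and Id1, Id2, Id3, Id4, Smad6, Smad7 and Bmper lay between -0.85 (Bmper and Id4) and 1.53 (Smad7), none passing.

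Between hairy and glabrous neurons, no member passed in edgeR in any comparison over both plates with the filter on low counts, and Bmper was the member furthest apart. Over all neurons, Bmper was 7.555, 20.45, 21.03, 36.17, 44.94, 58.66 and 72.01 CPM in hairy sums of litters H, P_Q, E_F_G, O, L, K and C_D. In the same order, glabrous sums held 8.956, 2.410, 3.826, 0.5618, 25.41, 5.485 and 1.310 CPM. The hairy sum was the higher one in 6 of 7 litters, and the ranges overlapped through litters H and L. The difference was 2.86 ± 0.76 (p = 0.00409, edgeR adjusted p = 0.249). Of 12852 genes tested 12 passed, or 0.0934% (0.0389% as higher, 0.0545% as lower), and of the 8 members tested none. An unadjusted p under 0.05 was reached by 1277 genes and by 1 member. Smad7 came next (-1.40 ± 0.66, adjusted p = 0.521, lower in 6 of 7 litters), and Id1, Id2, Id3, Id4, Fst and Rgmb lay between -0.36 (Id4) and 0.51 (Id3). Smad6 and Rgma were too low to be tested. Without the 10 cells low in neuronal markers no member passed either. DESeq2 called 337 genes, Bmper among them (2.97, adjusted p = 0.000396). Of the hairy cells 35 of 45 were on plate 2, and of the glabrous cells 85 were on plate 1 and 19 on plate 2. Within plate 1 the Bmper difference was 2.61 (adjusted p = 0.997) and within plate 2 it was 3.61 (0.352).

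With neuron type in the model the Bmper difference was 3.34 ± 0.68 (p = 0.000185, edgeR adjusted p = 0.25), where 1 gene of 14812 passed, or 0.00675%. DESeq2 called 36 genes, Bmper among them (3.49, adjusted p = 0.000125). The remaining 9 members had adjusted p values above that of Bmper, at -2.30 for Rgma, -1.64 for Smad6, -1.10 for Smad7, -0.99 for Id1, 1.05 for Fst, and -0.35 to 0.46 for Id2, Id3, Id4 and Rgmb. Across litters, hairy minus glabrous sums of the satellite glia markers differed by -0.364 on the log2 scale (exact two-sided sign-flip permutation p = 0.4219 over 7 litters), of myelinating Schwann cell markers by 0.937 (exact p = 0.1094) and of pan-neuronal markers by -0.226 (exact p = 0.07812). The part of these markers in the Bmper difference was not tested beyond the fit with the pooled markers of other cells as a covariate. That covariate held no pan-neuronal marker. No member passed with it, but none had passed without it, so the lack of a call does not tell the part of these markers. The marker sums above pooled the neuron types, unlike the fit with neuron type in the model.

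Within Ret-high neurons, the type with most litters to compare, the sums of Id1 and Id2 were lower and those of Bmper mostly higher in hairy cells, but none passed over all genes. Id1 was 4.311, 0, 9.849, 0, 3.865 and 8.851 CPM in hairy Ret-high sums of litters A_B, C_D, E_F_G, H, K and P_Q, against 36.20, 20.52, 24.69, 43.11, 22.77 and 22.33 CPM in glabrous ones. In these litters the groups did not overlap, with means of 4.479 ± 4.207 CPM in hairy and 28.27 ± 9.182 CPM in glabrous sums (SD, n = 6 litters each). The difference was -2.62 ± 0.63 (p = 0.00222, edgeR adjusted p = 0.426). Litter O had no glabrous Ret-high cell and was not compared. Its hairy Ret-high cell held 26.04 CPM of Id1, inside the glabrous range.

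Id2 was 28.02, 11.59, 33.86, 13.95, 23.19 and 55.80 CPM in the hairy Ret-high sums, against 63.06, 84.54, 81.71, 179.1, 85.43 and 78.62 CPM in the glabrous ones, in the same litters. In these litters the groups did not overlap either, and the difference was -1.75 ± 0.39 (p = 0.00143, edgeR adjusted p = 0.415). The hairy Ret-high cell of litter O held 99.83 CPM of Id2, inside the glabrous range. Bmper was 4.311, 86.29, 17.24, 0, 46.38 and 20.78 CPM in hairy sums, against 0, 2.462, 3.011, 8.844, 5.485 and 0.6118 CPM in glabrous sums, higher in 5 of 6 litters with overlapping ranges. Its difference was 3.09 ± 0.95 (p = 0.00922, edgeR adjusted p = 0.557).

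In that comparison edgeR called 0 of 11120 genes (0%) and 0 of 7 members tested. At an unadjusted p under 0.05 there were 862 genes and 4 members, the fourth being Rgmb at -0.46 (p = 0.0304). Id3 (-0.12), Id4 (-0.56) and Fst (0.51) did not reach it, and Smad6, Smad7 and Rgma were too low to be tested. DESeq2 called 1.22% of the genes and 3 members: Id1 (-2.81, adjusted p = 0.0017), Id2 (-1.78, 0.00163) and Bmper (3.24, 0.0169). Within plate 1, Id1 was -3.27 and Id2 -2.12 (edgeR adjusted p = 0.692 for both). Within plate 2 they were -1.64 (0.403) and -0.92 (0.441), and Bmper was 5.71 (0.0415). Hairy sums held 1 to 4 cells each, and satellite glia markers had a median of 1122 CPM in hairy and 1157 CPM in glabrous Ret-high cells.

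**Figure D4:**
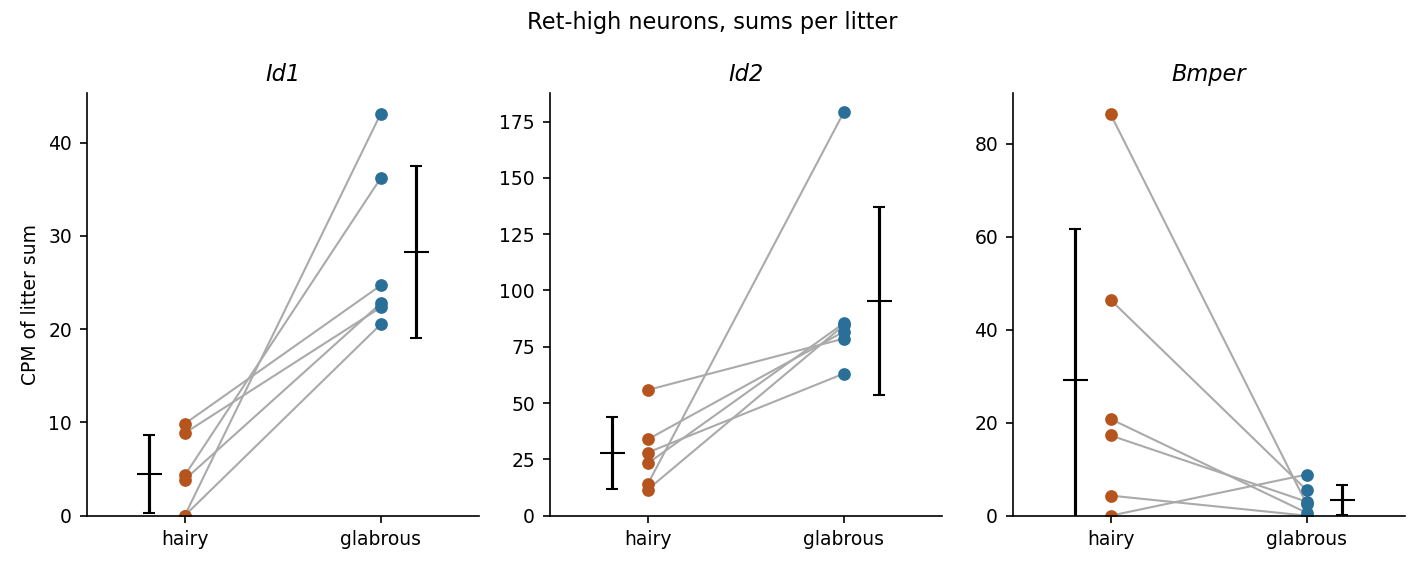
Id1, Id2 and Bmper in Ret-high neurons, in CPM per litter, with hairy sums at the left, glabrous sums at the right, lines joining the 2 sums of a litter, and the mean ± SD beside them. All 6 lines climb to the glabrous side for Id1 and Id2, and 5 of 6 fall to it for Bmper.

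Within Nefh-low neurons, 5 litters had both skin types, and 3 of the glabrous sums rested on 1 cell. Id2 was 192, 169.1, 119.2, 109.8 and 261.6 CPM in hairy sums of litters E_F_G, H, L, M and O, against 91.48, 132.1, 0, 113.5 and 125.1 CPM in glabrous sums. The ranges overlapped, and no member passed in edgeR (0 of 11055 genes, or 0%). Before adjustment, 55 genes and 0 of the 6 members tested were under p = 0.05. DESeq2 called 4 genes and no member. The median log2 difference over all genes was 0.56 here, and Bmper stood at 2.59 ± 1.89, Id4 at 1.28 ± 1.47, Id2 at 1.27 ± 1.08, Id1 at 1.14 ± 1.16, Rgmb at 0.68 ± 1.12 and Id3 at -0.64 ± 0.86. Fst, Smad6, Smad7 and Rgma were too low to be tested. The glabrous sum of litter L was 1 of the cells low in neuronal markers, with no count of Id1 or Id2. Without the 10 such cells the median over all genes was 0.006, with 322 of 10466 genes under p = 0.05 before adjustment and none called (0%). Bmper was then 0.99, Id2 0.36, Id1 0.44, Id4 0.36, Id3 -0.22, Rgmb -0.08 and Fst, now tested, 1.73 (edgeR adjusted p = 0.998 for each). The test of whether the skin difference itself was not the same in Ret-high as in Nefh-low neurons gave -2.17 for Id2 (p = 0.0105) and -2.31 for Id1 (p = 0.0199). Neither passed (edgeR adjusted p = 0.986), with 0 of 11305 genes called (0%) and 345 at an unadjusted p under 0.05. Bmper (1.88), Id4 (-1.61), Fst (-1.09), Rgmb (-0.57) and Id3 (0.32) did not reach 0.05 before adjustment, and Smad6, Smad7 and Rgma were too low. Without the 10 cells low in neuronal markers the values were -1.59 for Id2 (p = 0.00486 before adjustment, edgeR adjusted p = 0.872) and -1.80 for Id1 (p = 0.0383, edgeR adjusted p = 0.886), with 0 of 10812 genes called and 576 under 0.05 before adjustment.

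Between day 5 and day 4 glabrous neurons, edgeR called 0 of 15185 genes (0%). Before adjustment, 422 genes and 0 members were under p = 0.05, and DESeq2 called 3 genes and no member. Id3 was 14.85 to 87.38 CPM in 7 day 5 litters (median 50.69), against 21.91 and 32.91 CPM in 2 day 4 litters, a difference of 1.01 ± 0.53 with overlapping ranges (p = 0.0869 in edgeR before adjustment). Smad7 was 2.866 to 4.765 CPM at day 5, against 1.163 and 2.629 CPM at day 4, without overlap (0.97 ± 0.51, edgeR p = 0.0828). Smad6 (1.23), Bmper (1.03), Rgma (1.66), Id4 (-0.32), Rgmb (-0.20), Id1 (0.12), Id2 (0.001) and Fst (0.005) had edgeR adjusted p values of 1, as had all members. Both plates held cells of both ages. Within plate 1, Id3 was 0.20 and Smad7 2.02 (edgeR adjusted p = 0.952 and 0.598), and within plate 2 Id3 was 1.84 (0.858) and Smad7 too low to be tested. Each litter has 1 age, so age and litter cannot be told apart.

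Beyond the 10 genes, the wider pathway was read in the same contrasts. In the Nefh-low contrast, 7 of 23 BMP and GDF ligand genes were tested and 1 was higher, Bmp7 (3.68 ± 0.93, edgeR adjusted p = 0.00897), and 1 lower, Inha, the inhibin alpha chain (-1.05 ± 0.30, 0.0188). Of 14 receptor and SMAD genes, 13 were tested. Eng, the co-receptor endoglin (3.98 ± 0.89, 0.00417), Smad5 (1.28 ± 0.44, 0.0435) and the type I receptor Bmpr1a (0.78 ± 0.25, 0.0321) were higher. The activin receptor Acvr1b (-1.03 ± 0.33, 0.0297) and the type II receptor Bmpr2 (-0.57 ± 0.16, 0.0174) were lower. Endoglin is a gene of endothelium too, and its sums were at most 9.48 CPM.

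Secreted and membrane antagonists went both ways, with 4 of 19 tested higher and 6 lower in Nefh-low cells (26 in the list). Nbl1, a DAN-family BMP antagonist, stood at 94.71 to 353.4 CPM in the Nefh-low sums, against at most 45.89 CPM in any other sum, without overlap (3.83 ± 0.46, edgeR adjusted p = 3.59e-05). The follistatin-like genes Fstl3 (1.52 ± 0.33, 0.00344) and Fstl1 (1.06 ± 0.26, 0.00811) were also higher. Noggin (Nog, 1.66 ± 0.55, 0.0387) passed as higher than the mean of the 3 Nefh-high types, but not above each of them. Its Nefh-low sums were 0 to 27.31 CPM with a median of 1.577, below the medians of Ret-high (7.66) and Ntrk3-high sums (3.929). The Ntrk2-high sums held 0 to 0.5899 CPM. Among those lower were Fstl4 (-4.57 ± 0.71, 0.000271), Crim1, which tethers BMPs at the membrane (-2.78 ± 0.86, 0.0269), and Fstl5 (-2.36 ± 0.65, 0.0146).

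Of 23 other targets and feedback genes, 15 were tested, 4 were higher and 2 lower in Nefh-low cells. The SMAD-binding repressor Zeb2 was at 46.24 to 224.7 CPM in Nefh-low sums, against 5.798 to 64.24 CPM in Ret-high, 6.489 to 16.29 CPM in Ntrk2-high and 20.1 to 80.7 CPM in Ntrk3-high sums. Its difference was 2.43 ± 0.22 (edgeR adjusted p = 3.54e-06). Junb (1.01 ± 0.28, 0.0153), Klf10 (0.98 ± 0.28, 0.0162) and the SMAD co-repressor Ski (0.90 ± 0.23, 0.0091) were higher, and the SMAD cofactor Zfp423 (-2.29 ± 0.49, 0.00294) and the Notch and BMP target Hes1 (-1.44 ± 0.27, 0.00114) lower. Of the 3 E proteins that Id proteins bind, Tcf3 was higher (1.08 ± 0.30, 0.0147). The shares called in these lists, 2 of 7, 5 of 13, 10 of 19 and 6 of 15, stand beside 25.7% of all genes. Without the 10 cells low in neuronal markers, Bmp7, Inha, Eng, Smad5, Acvr1b, Bmpr2, Ski and Tcf3 no longer passed, while Nbl1, Nog, Fstl1, Fstl3, Fstl4, Fstl5, Crim1, Zeb2, Junb, Klf10, Zfp423, Hes1 and Bmpr1a did. The ligand gene Bmp15 and the type I receptor Bmpr1b were called in that fit and not with all cells.

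Between Ret-high and Ntrk2-high cells, 3 genes of these lists passed. Nog, a secreted BMP antagonist, held 299 counts over 9 Ret-high sums (1.477 to 14.99 CPM), against 4 counts over 3 Ntrk2-high sums (0 to 0.5899 CPM), without overlap (edgeR adjusted p = 0.0227). Bmp15, known from the oocyte, held 1 count over the 9 Ret-high sums, against 17 counts over the 3 Ntrk2-high sums (edgeR adjusted p = 0.0465). Zeb2 was higher in Ret-high cells (2.03 ± 0.37, edgeR adjusted p = 0.0103). In the other 2 contrasts between Nefh-high types, and between hairy and glabrous or day 5 and day 4 cells, no gene of the lists passed. The smallest p among hairy against glabrous Ret-high neurons was that of Bmpr1b, a type I BMP receptor (-3.26 ± 0.61, p = 0.000394, edgeR adjusted p = 0.309, lower in 6 of 6 litters). Zeb2 (-1.91 ± 0.61, adjusted p = 0.566) and the membrane protein Tmeff1 (-0.66 ± 0.23, adjusted p = 0.594) led their lists there, both lower in 6 of 6 litters, and Inha led the ligands (0.56 ± 0.34, adjusted p = 0.698).

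Over all neurons the smallest p was that of Bambi, a decoy receptor (-1.59 ± 0.38, p = 0.0021, edgeR adjusted p = 0.2, lower in 6 of 7 litters). Smad1 (0.52 ± 0.16, adjusted p = 0.312), Zfp423 (-1.13 ± 0.40, 0.391) and Gdf11 (-0.75 ± 0.40, 0.578) led the other lists. With neuron type in the model the leading genes were Zeb2 (-1.40 ± 0.27, adjusted p = 0.225), Nog (-2.07 ± 0.65, 0.809), Inha (0.72 ± 0.34, 0.913) and Acvr2b, a type II activin receptor (1.12 ± 0.53, 0.913). Within Nefh-low neurons they were Zfp423 (2.20), Smad4 (1.28), Tmeff1 (1.12) and Bmp1 (-1.28), each with an adjusted p of 0.995. In the test of the skin difference between types they were Bmpr1b (-2.86), Tmeff1 (-1.43), Klf10 (-1.68) and Inha (-0.40), each with an adjusted p of 0.986.

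Between Nefh-high types, Nog held 4 counts over the 3 Ntrk2-high sums and 39 over the 3 Ntrk3-high sums (edgeR adjusted p = 0.167), and Bmp15 17 counts in Ntrk2-high and none in Ntrk3-high sums (0.254). Zeb2 (-1.23 ± 0.39, adjusted p = 0.373) and Smad9 (-1.12 ± 0.55, 0.824) led the other lists in Ntrk2-high minus Ntrk3-high. In Ret-high minus Ntrk3-high the leading genes were Acvr2b (-1.95 ± 0.65, adjusted p = 0.347), Inha (-1.12 ± 0.42, 0.461), Hes1 (0.99 ± 0.41, 0.538) and Tmeff2 (-0.61 ± 0.27, 0.619). Among receptors Bmpr1b led in Ret-high minus Ntrk2-high, with 549 counts over 9 Ret-high sums and 6 over 3 Ntrk2-high sums (adjusted p = 0.214). Between day 5 and day 4 they were Bambi (0.62), Acvr2b (1.19), Hes1 (-0.60) and Inha (0.48), each with an adjusted p of 1.0.

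Among the members themselves, cells of a type varied together only in part. Over all typed cells, centred within type, the highest Spearman correlations were 0.427 for Id1 with Id2, 0.416 for Id1 with Smad6, 0.377 for Id4 with Rgmb and 0.352 for Smad6 with Smad7. Fst had a rho of 0.499 with Ntrk2, and Ntrk2 one of 0.703 with the satellite glia markers. These cells share litters, plates and depth, and the values are descriptions only.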

How the data were processed

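The deposited table holds expected counts per gene and cell, whole numbers from Salmon as deposited by the authors and not normalized between cells. Per the submitters' processing notes, the tools were FastQC, cutadapt and Salmon and the build mm10, with versions, the annotation and any length scaling not given in the sources used here. Libraries were made from polyA RNA in 5 cDNA batches per the labels' protocols. From these counts, CPM used each cell's total. Counts were summed per litter, skin type and neuron type and tested in edgeR 4.0.16 (TMM, filterByExpr, quasi-likelihood test, Benjamini-Hochberg over all genes, threshold 0.05), with litter as a block. SE is the log2 difference divided by the square root of F. DESeq2 1.42.0 was an alternative. R was 4.3.3. Scripts were tested on simulated data. Raw totals per cell were 395811 to 1053854, which limits genes near 1 CPM to about a single count per cell. The litter pairing comes from the labels. Within-litter correlations of deviations were -0.08 to 0.265. The 10 genes and the lists were chosen with earlier results of these data known, so p-values do not account for that choice. All 10 were named in every comparison, and of the other lists up to 4 passing genes a direction by size, or where none passed the gene with the smallest p; some genes are not reported here. Litters may share parents or handling, so p-values measure the spread between these litters. Alternatives varied the filter, scaling, type thresholds, cells per sum, plates, marker content and litters. The exclusion of cells under 3000 CPM of pan-neuronal markers, of glia-high cells, the Tafa4 splits, the within-plate age fits and the test of the skin difference between neuron types were chosen after seeing the data.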

Additional observations from a re-analysis of the deposited data

Results flagged for a closer look

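Sums were flagged by a cut-off that marks about 1 group in 20 of independent, normally spread values. The CPM are skewed, hold zeros and share cells between groups, so the number flagged was not compared with chance. Of 60 groups of 4 to 10 litter sums, 10 held a sum apart from the others. Over all neurons, these were Bmper in glabrous litter L (25.41 CPM, next 8.956), Fst in hairy litter C_D (51, next 20.35), Id1 in glabrous litter H (47.29, next 23.96) and Rgma in glabrous litter E_F_G (5.189, next 0.6648). In glabrous Nefh-low cells they were Bmper in litter M (208.6, next 17.91), Fst in litter M (19.86, next 1.791), Rgma in litter E_F_G (46.92, with the others at 0.0) and Id3 in litter H, the lowest (76.12, next 128.1). In Ret-high cells they were Id2 in glabrous litter H (179.1, next 85.43) and Smad6 in hairy litter K (0.4831, with the others at 0.0). Litter M's glabrous Nefh-low sum and litter H's glabrous Ret-high sum are each 1 cell.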

How the results depend on the processing

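Of the single-gene results at an unadjusted p under 0.05, values under the alternatives kept direction and side of the threshold in 437 cases, lost the call in 35, gained it in 21 and reversed in 3. The 62 results at a higher p had the other sign in 9.47% of 1436 cases, none of them called, and 4 cases were called (Id4 in the Nefh-low contrast in 2 settings, Rgma under DESeq2 in 2 contrasts). Reversed were Fst in the Nefh-low contrast at a Nefh threshold of 1000 CPM (0.073), Id1 there among cells under 100 CPM of Tafa4 (-0.19) and Rgmb in Ret-high minus Ntrk2-high with sums of 1 cell (-0.159). The causes were not tested. Members called in the Nefh-low contrast numbered 3 at a Nefh threshold of 250 CPM, 3 under 100 CPM of Tafa4, 2 with sums of 1 cell, 1 with other-cell markers in the model, 3 within plate 1, 3 without the top quartile of satellite glia markers, and 3 to 6 over litters left out, against 5. DESeq2 gave 2 in both contrasts of Ntrk2-high cells, against 1, the second being Rgma with the Ntrk2-high sums at 0. For Ntrk2-high minus Ntrk3-high the count was 0 in glabrous cells only, within plate 1, without Calca-high cells, without glia-high cells, with Nefh-low cells of the shared fit under 100 CPM of Tafa4, and without litter I. For Ret-high minus Ntrk2-high it was 0 in glabrous cells only, without Calca-high cells and without litter I. Leaving out other litters kept it at 1 in both. Between hairy and glabrous cells DESeq2 and no filter each gave 1 over all neurons, 1 with type in the model and 3 in Ret-high cells, where plate 2 alone gave 1, against 0. Without the replicate block no count of members moved (5, 1, 1 and 0 in the type contrasts), though Smad6 (adjusted p = 0.0137) replaced Fst (0.0616) in the Nefh-low contrast; calls over all genes were 4204 against 3802, 110 against 57, 368 against 183, 300 against 68 for Ret-high minus Ntrk3-high, and 20 against 1 for skin with type. Over all genes, DESeq2 called 337 against 12 for skin, 36 against 1 with type, 1.22% against 0% in Ret-high cells, 246 against 57, 574 against 183 and 264 against 68 between Nefh-high types, and no filter 342, 166, 449, 406, 742 and 475. Markers in the model left 1052 of 3802. The Nefh-low skin comparison could not be run with 2 cells per sum. Depth limits Smad6, Smad7 and Rgma.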
